A study of Mus musculus with 62 samples.

Results

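Lactate leaves and enters cells on monocarboxylate transporters and is made from, or turned back into, pyruvate by lactate dehydrogenase. The transcripts of 6 genes of this route were followed here, of the 48795 genes in the count table: the transporter genes *Slc16a1*, *Slc16a3* and *Slc16a7*, *Bsg*, which encodes the partner protein of the transporters, and the enzyme genes *Ldha* and *Ldhb*. They were named as a set after *Slc16a1* had been measured as higher in fat of *Fam13a* knockout (KO) mice than of wild-type (WT) mice in 32 male libraries, so the members were chosen by the difference between genotypes in male fat, which is given below as a description without a test. All 6 genes passed the filter on low counts in every comparison, and *Slc16a3* and *Ldhb* did so in liver on counts of 0 to 24 and 0 to 44 per library.

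The study compared whole-body *Fam13a* KO mice with WT controls on a C57BL6 background. The KO line descends from embryonic stem cells in which LoxP sites flank an exon of *Fam13a*, and the absence of the exon in all cells is shared by the tissues compared. RNA was taken from subcutaneous adipose tissue (SAT, the inguinal depot), visceral adipose tissue (VAT, the gonadal depot) and liver. Male mice on chow with 18% of calories from fat, or on a high-fat diet (HFD) with 45% of calories from fat, gave all 3 tissues, and female mice on HFD gave SAT and VAT. Mice on HFD were killed at 22 weeks of age after 14 weeks on the diet, and the sources used here tie no age to the libraries of mice on chow. Each of the 16 groups of sex, diet, tissue and genotype had 4 libraries, except WT females, with 3 in each depot. Nothing in the labels links the tissues of 1 mouse or says which libraries share a cage or litter, and the p-values measure the spread between these libraries. Fits that hold more than 1 tissue took their libraries as separate animals. Where the depots came from the same mice, p-values for genotype or sex over both depots are too small. Contrasts between tissues, and of diet effects between depots, would then lie within mice. Their p-values leave that pairing out and may be too large. As many WT females on HFD were profiled in the study as there are libraries in each of their depots, so these depots may share their animals.

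Monocarboxylate transporter MCT1, encoded by *Slc16a1*, carries lactate, pyruvate and ketone bodies together with a proton and is found in most tissues, including adipocytes and liver. MCT4 (*Slc16a3*) is known from cells that export lactate, such as fast muscle fibres and activated macrophages, and MCT2 (*Slc16a7*) binds its substrates more tightly than MCT1. Basigin (*Bsg*) takes MCT1 and MCT4 to the cell surface. Lactate dehydrogenase is a tetramer of the LDHA subunit, which prevails in glycolytic tissues and in liver, and the LDHB subunit, which prevails in the heart. Adipocytes turn part of the glucose they take up into lactate and release it, while the liver takes lactate up for glucose production.

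The stretches of DNA upstream of the start sites are shown for 4 members because *Slc16a1* and *Ldha* had a higher mean in KO than in WT in 6 of 6 groups of fat, and *Slc16a3* and *Ldhb* are the other transporter and the other subunit with an entry. The 250 bases are from RefSeq (GRCm38.p6), 5′ to 3′ on the strand of the gene, and capitals mark ACGTG or GCGTG on either strand, the core of the hypoxia response element, with overlapping matches read as 1 site. They lie at chr3:104638414-104638663 (plus strand), chr11:120948817-120949066 (plus strand), chr7:46845554-46845803 (plus strand) and chr6:142507958-142508207 (minus strand).
Slc16a1: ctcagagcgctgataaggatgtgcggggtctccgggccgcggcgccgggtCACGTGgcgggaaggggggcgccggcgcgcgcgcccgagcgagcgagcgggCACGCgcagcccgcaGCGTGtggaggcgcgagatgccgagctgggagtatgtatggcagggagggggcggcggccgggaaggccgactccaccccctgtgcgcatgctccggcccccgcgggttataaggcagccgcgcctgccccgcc
Slc16a3: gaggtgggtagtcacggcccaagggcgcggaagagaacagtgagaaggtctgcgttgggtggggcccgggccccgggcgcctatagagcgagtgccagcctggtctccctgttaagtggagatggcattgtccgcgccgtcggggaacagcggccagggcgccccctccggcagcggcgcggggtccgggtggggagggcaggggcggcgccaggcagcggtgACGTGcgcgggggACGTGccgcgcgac
Ldha: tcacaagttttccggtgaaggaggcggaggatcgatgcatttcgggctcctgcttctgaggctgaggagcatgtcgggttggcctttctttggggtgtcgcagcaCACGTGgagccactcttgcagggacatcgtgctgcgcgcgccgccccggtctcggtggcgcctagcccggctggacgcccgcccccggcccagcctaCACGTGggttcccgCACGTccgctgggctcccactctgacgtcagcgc
Ldhb: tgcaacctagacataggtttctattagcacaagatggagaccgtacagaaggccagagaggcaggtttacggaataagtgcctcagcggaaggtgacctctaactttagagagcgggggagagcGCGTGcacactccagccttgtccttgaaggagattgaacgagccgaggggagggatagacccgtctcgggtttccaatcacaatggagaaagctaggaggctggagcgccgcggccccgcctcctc
In the window of 300 bases that also holds the first 50 bases after the start, *Slc16a1* had 4 such sites, *Slc16a3* 2, *Ldha* 5 and *Ldhb* 1. A second RefSeq start of *Ldha* had 2. Of 32851 mouse promoters of the same length, 43.8% had at least 1 site, 17.3% at least 2 and 2.44% at least 4. The share of G and C in these windows was 73.7%, 73.3%, 67.3% and 57.3% in the same order, and the promoters counted for comparison were not matched for it. No entry was found for *Slc16a7* and *Bsg*. These are matches of letters and were not tested as binding sites.

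By GENCODE M21 (GRCm38), *Slc16a1* lies on chromosome 3 (104638668 to 104658462, plus strand), *Slc16a3* on chromosome 11 (120948480 to 120960868, plus strand), *Slc16a7* on chromosome 10 (125219270 to 125389465, minus strand), *Bsg* on chromosome 10 (79704491 to 79711969, plus strand), *Ldha* on chromosome 7 (46841475 to 46855627, plus strand) and *Ldhb* on chromosome 6 (142490249 to 142507957, minus strand). The *Ldha* copies *Ldha-ps* and *Ldha-ps2* took at most 3 and 8 counts in a library, up to 0.393% of the counts of *Ldha*. The antisense gene *Gm45604* within *Slc16a7* had at most 31 counts, and the 2 sense genes within introns of *Slc16a1*, *Gm43581* and *Gm43585*, had at most 128 and 41 and share no exon base with it. *Gm47862*, which shares 179 exon bases with *Slc16a7* on the other strand, was not in the table.

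The libraries held 4959780 to 28723300 counts, with a median of 21694100, and 1 gene of ribosomal RNA took 0.0127% to 75.4% of them. The liver library of KO mice on HFD with the 75.4% (replicate 3) had 1219430 counts outside that gene, the lowest *Slc16a1*, *Bsg* and *Ldha* of its group and no count of *Slc16a3* and *Ldhb*, which allows up to 3.03 CPM of each (3 counts, counting error only). Without it the effects of diet in liver gave the same number of DE members. *Fam13a* counts cover the whole gene, also the exons that remain, and their mean in KO was 24.9% to 85.4% of the WT mean, lower in 8 of 8 pairs of groups and without overlap in 3. Adipocyte markers had a mean of 9.53 to 11.18 log2 CPM (counts scaled by library size and TMM factor) in every fat library and hepatocyte markers 11.69 to 12.57 in every liver library. No age is tied to the chow libraries, so a difference in age between the diets could not be told apart from diet. Chow libraries were sequenced on lanes of their own, so that diet and lane cannot be told apart, and in HFD fat the same holds for sex. Each tissue also had a lane of its own on chow, and largely so in males on HFD, so that differences between tissues carry the same limit. In bulk tissue, fewer cells of a type and less RNA per cell cannot be told apart.

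More of the 6 genes passed the threshold between liver and fat than between diets, and fewest between genotypes outside male fat. The whole table had the same order, and the comparisons differ in their number of libraries. Counts of differentially expressed (DE) members are from edgeR's quasi-likelihood test at a false discovery rate (FDR) of 10%, adjusted over all genes tested. Liver differed from the fat of males in 6 of 6 members, where 85.3% of all genes were DE, and VAT from SAT in 1 of 6 (40.5% of all genes). HFD differed from chow in 2 of 6 members in male SAT (58% of all genes), in 4 in male VAT (44.2%) and in 4 in male liver (40.8%). Female fat differed from male fat on HFD in 1 of 6 (37.5%). The effect of diet differed between VAT and SAT in 3 of 6 (35.7%). The members thus had a higher share of DE genes than the whole table in liver against fat, for HFD in VAT and liver and for the depot difference in diet effect, and a lower one in the other 3, and no difference of shares was tested. KO differed from WT in 0 of 6 members in female fat, where 15 genes or 0.0848% of those tested were DE, 2200 of 17685 had an unadjusted p under 0.05 and DESeq2 called 487 genes, with *Slc16a1* among them. In male liver 0 of 6 members and 0% of 14476 genes were DE between genotypes by edgeR, 1416 had an unadjusted p under 0.05 and DESeq2 called 91 genes but no member.

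**Figure D1:**
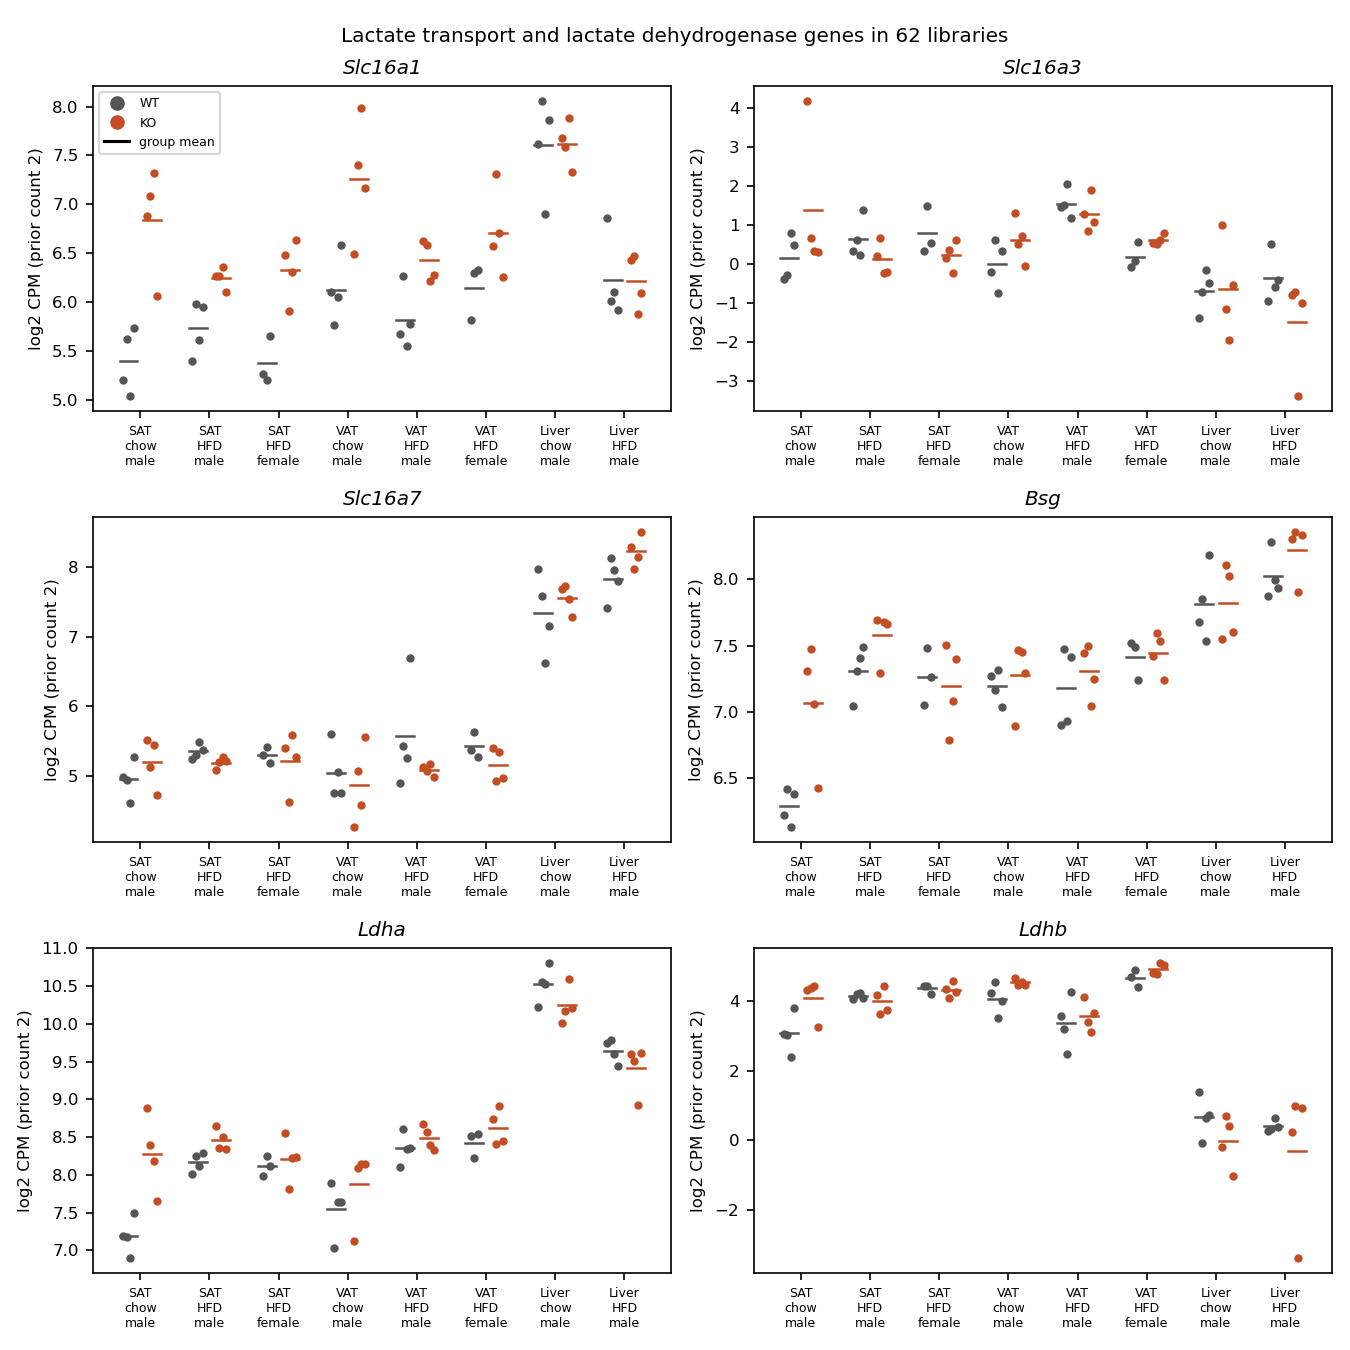
Expression of the 6 genes in each library (points; y axis, log2 CPM with a prior count of 2) and mean of each group (bars), by tissue, diet, sex and genotype (x axis; WT grey, KO orange). *Slc16a1* is higher in KO in each group of fat and not in liver, and *Ldhb* is near the bottom of its scale in liver.

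*Slc16a1*, the MCT1 gene, was higher in KO than in WT in each group of fat and about equal in liver. The values that follow are CPM of single libraries, and those of males were known when the gene was chosen. In SAT of males on chow the WT libraries had 36.7, 49.3, 32.8 and 53.2 and the KO libraries 118, 135, 160 and 66.6. In SAT of males on HFD the WT libraries had 41.9, 62.9, 48.8 and 61.8 and the KO libraries 76.8, 76.9, 81.8 and 68.8. The genotypes did not overlap in SAT on either diet. In VAT of males on chow the WT libraries had 68.6, 54.3, 66.5 and 95.5 and the KO libraries 89.8, 170, 254 and 144. In VAT of males on HFD the WT libraries had 51, 76.8, 46.7 and 54.7 and the KO libraries 98.3, 95.8, 74.4 and 77.6. In both groups of VAT 3 of 4 KO libraries were above all WT libraries. Over the 32 male fat libraries, adjusted for depot and diet, KO exceeded WT on the log2 scale by 0.94 ± 0.15 (SE), a contrast in which 3.97% of all genes were DE, and it stayed between 0.86 and 0.98 when any 1 library was left out. It was 0.76 when the adipocyte score was added to the fit, 0.80 with the lymphocyte marker score and 0.96 with the lane.

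In female fat, *Slc16a1* had a mean of 81.7 CPM in KO SAT and 41.7 in WT SAT, and of 109 in KO VAT and 71.7 in WT VAT. The KO SAT libraries had 89.2, 59.8, 78.9 and 99 CPM and the WT SAT libraries 38.4, 36.6 and 50.2, without overlap. The KO VAT libraries had 94.8, 158, 104 and 76.6 CPM and the WT VAT libraries 56.4, 78.4 and 80.4, so that 3 of 4 KO libraries were above all WT libraries. The log2 fold change over both depots was 0.77 ± 0.17 (SE), in the direction that named the gene, and did not pass the FDR in edgeR's quasi-likelihood test (adjusted p = 0.157), while DESeq2 gave an adjusted p of 0.0049. Within 1 depot the value was 0.96 in SAT (adjusted p = 0.884, edgeR) and 0.60 in VAT (adjusted p = 0.765). It passed in edgeR without replicate 2 of KO SAT (0.82, adjusted p = 0.0678), a library with a lymphocyte score of 4.72, and without replicate 3 of WT VAT (0.84, adjusted p = 0.0707). The KO libraries of SAT shared 1 lane and those of VAT another, and with lane as a covariate the value was 0.53 (adjusted p = 1). In male liver, where the gene was at 60.6 to 267 CPM in WT and 58.6 to 236 in KO, the log2 fold change was 0.04 ± 0.14 (SE; adjusted p = 0.965).

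HFD went with less *Slc16a1* in liver and in VAT of males. Liver libraries on chow had 120 to 267 CPM with a median of 200, and those on HFD 58.6 to 116 with a median of 68.4, so that all 8 on HFD were below all 8 on chow. The log2 fold change in liver was −1.46 ± 0.15 (SE; adjusted p = 6.49e-07, edgeR). In VAT the 8 chow libraries had 54.3 to 254 CPM (median 92.6) and the 8 HFD libraries 46.7 to 98.3 (median 75.6), with overlap. The fold change in VAT was −0.65 ± 0.20 on the log2 scale (SE; adjusted p = 0.0179). It was −0.97 (adjusted p = 0.046) in the 8 KO libraries alone and −0.35 (adjusted p = 0.266) in the 8 WT libraries alone, a difference between genotypes that did not pass its own test (−0.61, adjusted p = 0.661). In SAT the value over both genotypes was −0.15 ± 0.21 (SE; adjusted p = 0.555), and adding the adipocyte score to the fit gave −0.64, which passed the FDR (adjusted p = 0.00147). With the lymphocyte score it was −0.46 (adjusted p = 0.157), and in WT alone it had the other sign (0.33, adjusted p = 0.19). VAT had more *Slc16a1* than SAT over both diets (0.34 ± 0.13 on the log2 scale, adjusted p = 0.0435), and the value was 0.56 (adjusted p = 0.0458) in chow libraries alone and 0.12 (adjusted p = 0.513) in HFD libraries alone.

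*Slc16a3*, the gene of the lactate exporter MCT4, was the least abundant member. Per transcript length it had a median of 0.977 TPM (counts scaled by exon length and library) in the 32 male fat libraries, where *Slc16a1* had 57.3, and 0.131 TPM in liver. It was the one transporter gene that was DE and higher on HFD in VAT. The chow VAT libraries had 0.501 to 2.4 CPM (median 1.25) and the HFD VAT libraries 1.71 to 4.04 (median 2.51), and 7 of the 8 chow libraries were below all HFD libraries. The log2 fold change was 1.06 ± 0.28 (SE; adjusted p = 0.00864, edgeR).

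In SAT the values of *Slc16a3* rested on 1 library. Replicate 1 of KO on chow had 18.3 CPM and the other 15 male SAT libraries 0.672 to 2.51 CPM. The same library had the highest skeletal muscle marker score of all, 9.07, against 1.83 to 4.46 in the other 7 chow SAT libraries, and none of the 8 muscle markers was at 0 throughout. The effect of diet was larger in VAT than in SAT (difference 2.03 ± 0.77 on the log2 scale, adjusted p = 0.0477), and 0.94 (adjusted p = 0.0827) without that library. The male fat difference between genotypes, 0.66 ± 0.43, was −0.03 without it. The depot difference was 0.03 with all libraries and 0.55 (adjusted p = 0.0602) without it. The difference of VAT from SAT also depended on diet, with −0.99 (adjusted p = 0.169) in chow libraries alone and 1.05 (adjusted p = 0.00186) in HFD libraries alone.

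*Slc16a7*, the MCT2 gene, was foremost a liver transcript. Liver had 98.6 to 364 CPM and male fat 19.1 to 103, and only 1 fat library, replicate 4 of WT VAT on HFD with 103, was above 50. The log2 fold change of liver over fat was 2.65 ± 0.11 (SE; adjusted p = 9.34e-24), and in TPM the medians were 27.3 in liver and 10.7 in fat. On HFD the gene was higher in liver, with 171 to 364 CPM against 98.6 to 251 on chow (0.48 ± 0.14 on the log2 scale, adjusted p = 0.012). In fat neither diet, sex nor depot changed it past the FDR in the main fits, with log2 fold changes between −0.04 and 0.37. The effect of HFD in male SAT passed in 1 of 15 alternative settings, the WT libraries alone. It also passed without replicate 1 of KO on chow (0.25, adjusted p = 0.0928, edgeR). The KO mean was below the WT mean in 5 of 6 groups of fat and above it in both groups of liver (0.36 ± 0.14 on the log2 scale in liver, adjusted p = 0.426).

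*Bsg*, which encodes the chaperone basigin, was far more abundant than the transporters. Its median was 302 TPM in male fat and 203 TPM in liver. Its ratio to the summed TPM of the 3 transporter genes was 1.62 to 2.87 in liver on chow and 3.19 to 4.45 in liver on HFD, and 1.84 to 3.95 and 4.17 to 6.23 in male SAT, without overlap of the diets in either tissue. In male VAT it was 1.62 to 5.35 on chow and 3.54 to 4.62 on HFD, with overlap. In SAT it was higher on HFD. WT SAT had 74.5, 85.2, 70 and 83.3 CPM on chow and 132, 159, 170 and 179 on HFD. KO SAT had 159, 177, 133 and 86.1 CPM on chow and 207, 157, 204 and 203 on HFD. The genotypes did not overlap on chow, the diets did not overlap in WT, and in KO they did. Over both genotypes the log2 fold change of HFD was 0.77 ± 0.15 (SE; adjusted p = 0.000939, edgeR), 1.03 (adjusted p = 4e-04) in WT alone and 0.46 (adjusted p = 0.201) in KO alone. In VAT it was −0.02 ± 0.11, and the effect of diet was smaller there than in SAT (−0.77 ± 0.19, adjusted p = 0.00405). In liver *Bsg* was slightly higher on HFD (0.23 ± 0.08, adjusted p = 0.0454). The description of KO against WT in male fat gave 0.31 ± 0.12, and the test in female fat −0.02 ± 0.11 (adjusted p = 0.974).

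*Ldha*, the subunit gene of pyruvate reduction to lactate, was the most abundant member in liver and level with *Bsg* in fat, with a median of 303 TPM in male fat (136 to 445) and 433 TPM in liver. HFD went with more *Ldha* in both fat depots and less in liver, and markers of other cell types differed between the diets in both depots, as given below with the values under covariates. Liver libraries had 1040 to 1800 CPM on chow and 488 to 887 on HFD, without overlap, a log2 fold change of −0.94 ± 0.09 (SE; adjusted p = 5.5e-07). VAT libraries had 130 to 283 CPM on chow and 274 to 409 on HFD, and 1 of 8 HFD libraries lay within the chow range (0.64 ± 0.15 on the log2 scale, adjusted p = 0.00452).

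In SAT the effect of diet on *Ldha* passed the FDR in WT alone and not in KO alone, and the difference between these effects did not pass its own test (−0.83, adjusted p = 0.201). WT SAT had 146, 144, 119 and 180 CPM on chow and 257, 304, 277 and 313 on HFD. KO SAT had 471, 337, 291 and 201 CPM on chow and 402, 329, 364 and 324 on HFD. All KO libraries on chow were above all WT libraries on chow, and the same held on HFD. The log2 fold change of HFD in SAT was 0.56 ± 0.18 over both genotypes (SE; adjusted p = 0.0173), 0.96 (adjusted p = 0.00106) in WT alone and 0.11 (adjusted p = 0.786) in KO alone. KO against WT in male fat was 0.48 ± 0.13, given as a description, and 0.15 ± 0.12 in female fat (adjusted p = 0.66). In liver the KO mean was below the WT mean on both diets, with −0.18 ± 0.09 and an adjusted p of 0.541.

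*Ldhb*, the other subunit gene, was a fat transcript in these tissues. Male fat had 5.18 to 25.5 CPM and liver 0 to 2.51 CPM, and the log2 fold change of liver over fat was −3.39 ± 0.18 (SE; adjusted p = 1.62e-20). In VAT it was lower on HFD, with 11.4 to 25.5 CPM on chow and 5.54 to 19.1 on HFD (−0.80 ± 0.22 on the log2 scale, adjusted p = 0.0112). In SAT the value was 0.43 ± 0.25 over both genotypes (adjusted p = 0.169), and the effect of diet in VAT was below that in SAT (−1.22 ± 0.35 on the log2 scale, adjusted p = 0.0105). WT SAT had 8.25, 8.07, 5.18 and 14 CPM on chow and 16.5, 18.5, 18.6 and 17 on HFD, without overlap, and in WT alone the log2 fold change was 1 (adjusted p = 0.0127). KO SAT had 20.1, 20.6, 21.8 and 9.54 CPM on chow and 18.1, 12.2, 21.6 and 13.2 on HFD (−0.16, adjusted p = 0.733).

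Fat of females on HFD had more *Ldhb* than fat of males on HFD, and *Ldhb* was the only member DE between the sexes. Female libraries had 17 to 34.3 CPM (median 22.9) and male libraries 5.54 to 21.6 (median 14.8). All 7 female VAT libraries, at 21 to 34.3, were above all 8 male VAT libraries, at 5.54 to 19.1. The log2 fold change was 0.77 ± 0.16 (SE; adjusted p = 0.000464, edgeR). The macrophage marker score was 4.89 to 6.25 in these female libraries and 5.71 to 8.01 in the male ones, none of the 8 markers was at 0 throughout either sex, and with that score as a covariate the value was −0.08 (adjusted p = 0.877). The score of mammary and skin epithelium markers was 2 to 3 in female SAT and −3.25 to −0.65 in male SAT on HFD, without overlap. In each of them 1 of the 8 markers was at 0 in all libraries. That score was not used as a covariate, so its part was not tested. *Slc16a3* missed the FDR between the sexes (−0.44 ± 0.20, adjusted p = 0.104) and passed it by DESeq2 (−0.47, adjusted p = 0.0591). KO against WT for *Ldhb* was 0.31 ± 0.20 in male fat, as a description, and 0.10 ± 0.10 in female fat (adjusted p = 0.767).

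**Figure D2:**
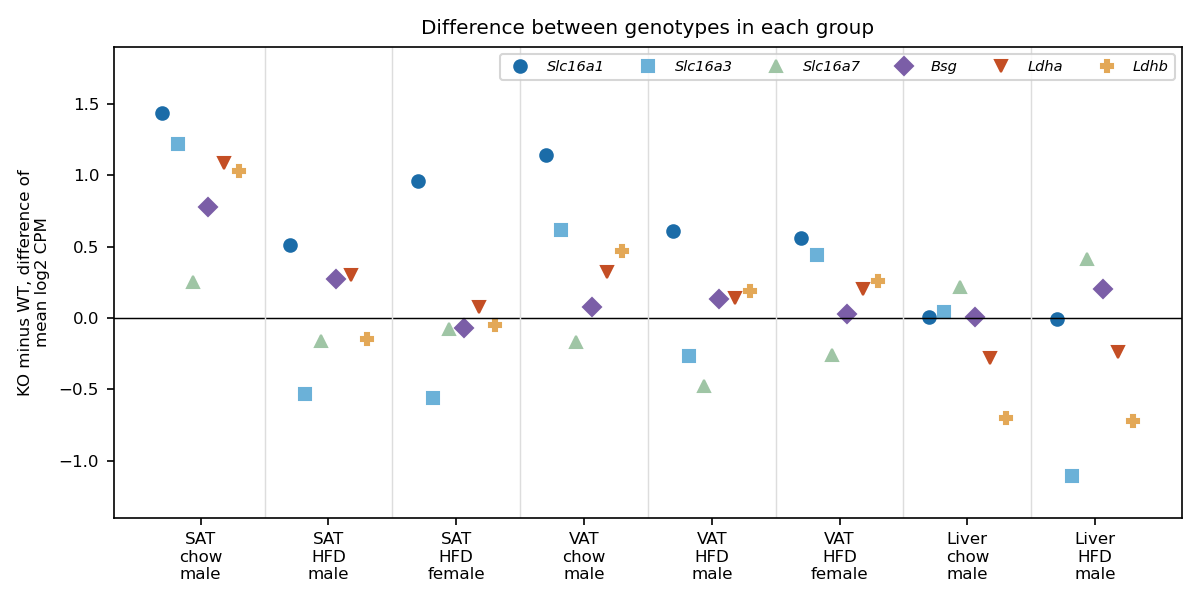
Difference between the genotypes in each of 8 pairs of groups (x axis) for each gene (symbols), as the difference of mean log2 CPM (y axis; above 0, higher in KO). *Slc16a1* lies between 0.51 and 1.44 in the 6 groups of fat and at 0.01 and −0.01 in liver, and in SAT of males on chow all 6 genes lie above 0.

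The mean was higher in KO in 6 of 6 groups of fat for *Slc16a1* and *Ldha*, in 5 for *Bsg*, in 4 for *Ldhb*, in 3 for *Slc16a3* and in 1 for *Slc16a7*. In SAT of males on chow KO was above WT for all 6 genes, and the share of all genes above WT there is not given here. The differences of mean log2 CPM were 1.44 for *Slc16a1*, 1.22 for *Slc16a3*, 1.09 for *Ldha*, 1.03 for *Ldhb*, 0.78 for *Bsg* and 0.25 for *Slc16a7*. The value of *Slc16a3* rested on KO replicate 1, at 18.3 CPM against 1.14 to 1.5 in the other KO libraries. Lymphocyte markers moved with genotype in these SAT libraries on chow. None of the 8 markers was at 0 throughout either genotype, and their score was 3.45 to 5.46 in the 4 WT libraries and −0.57 to 0.95 in 3 KO libraries, with 5.14 in the KO replicate 4. That KO library had the lowest *Slc16a1*, *Bsg*, *Ldha* and *Ldhb* of its group, at 66.6, 86.1, 201 and 9.54 CPM. The adipocyte score was 9.53 to 10.42 in WT and 10.24 to 10.99 in KO. The part of these cells in the difference was not tested beyond the covariates given here: with the lymphocyte score, the male fat values were 0.80 for *Slc16a1*, 0.37 for *Ldha*, 0.14 for *Bsg* and 0.12 for *Ldhb*.

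**Figure D3:**
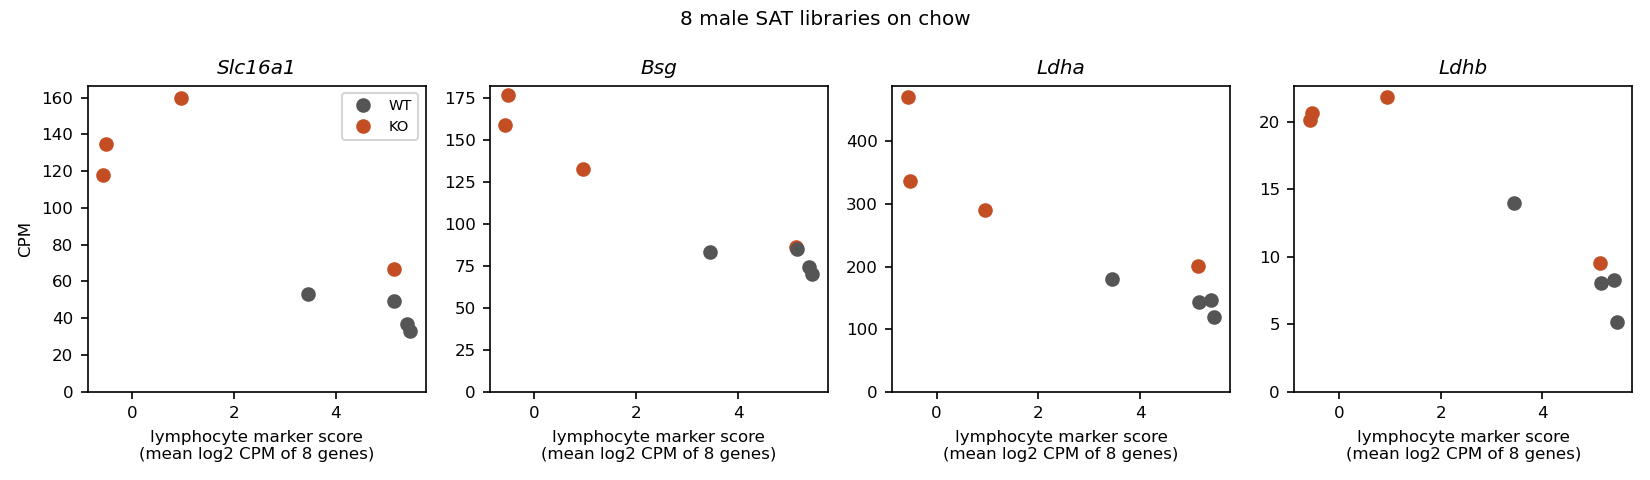
CPM of 4 members (y axes) against the lymphocyte marker score (x axes, mean log2 CPM of 8 genes) in the 8 SAT libraries of males on chow (WT grey, KO orange). The 4 WT libraries and KO replicate 4 have scores of 3.45 to 5.46 and the lowest values, and 3 KO libraries have scores of −0.57 to 0.95 and the highest.

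In SAT of males the effect of HFD was lower in KO than in WT for all 6 members, and 0 of 6 passed the FDR in edgeR's quasi-likelihood test, where 0.0173% of all genes were DE and 3010 of 17292 had an unadjusted p under 0.05. The share of all genes with a lower effect in KO is not given here, and their median was −0.03. Values above 0 were found in 5 of 22 genes of glucose uptake and glycolysis, 3 of 18 of pyruvate entry and gluconeogenesis and 4 of 7 other lactate genes. The differences between the effects were −0.98 ± 0.33 for *Slc16a1* (adjusted p = 0.193), −0.83 ± 0.29 for *Ldha* (0.201), −1.14 ± 0.42 for *Ldhb* (0.212), −0.56 ± 0.26 for *Bsg* (0.289), −0.42 ± 0.23 for *Slc16a7* (0.35) and −2.82 ± 1.11 for *Slc16a3* (0.226). These tests used male SAT libraries in which *Slc16a1* was known to be higher in KO, so they give no independent support for a genotype difference. DESeq2 called 957 genes, *Slc16a1* (adjusted p = 0.0792) and *Ldha* (adjusted p = 0.0897) among them. This count turned on 1 library: without KO replicate 4 on chow, which has the high lymphocyte score, 6 of 6 members passed, but so did 29.2% of all genes. The corresponding test called 0 of 6 in VAT (0.00577% of all genes, 1587 of 17330 with an unadjusted p under 0.05, 102 by DESeq2) and 0 of 6 in liver (0% of all genes, 928 of 14476 with an unadjusted p under 0.05, 24 by DESeq2), and no member passed by DESeq2 in either.

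**Figure D4:**
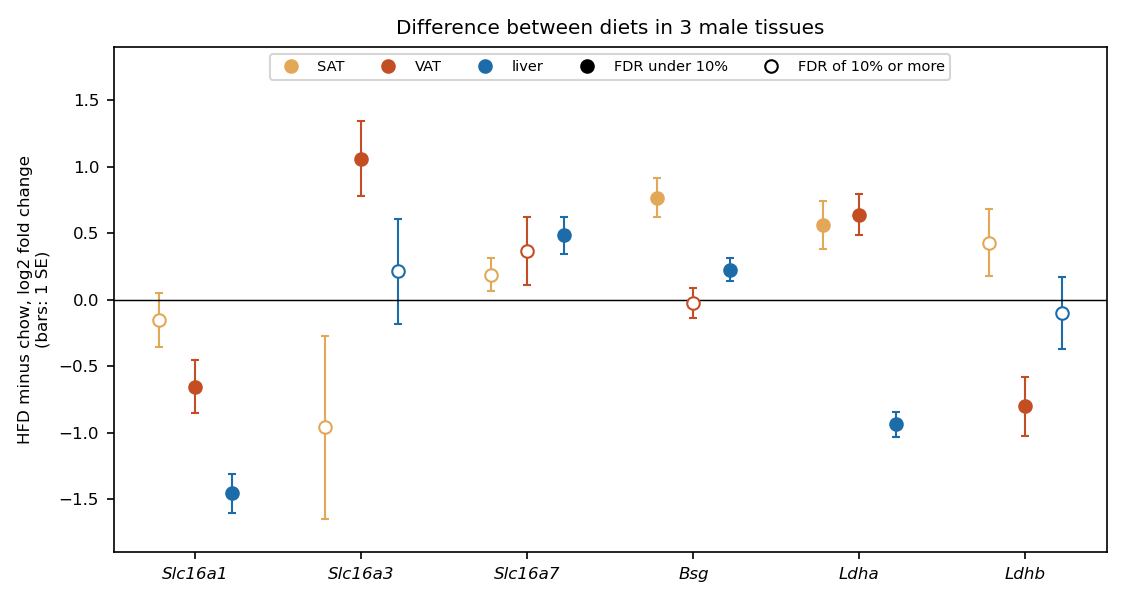
Log2 fold change of HFD over chow in male SAT, VAT and liver (y axis; bars, 1 SE) for each gene (x axis), from 16 libraries per tissue. Filled symbols passed the FDR of 10%. *Ldha* is up in both fat depots and down in liver, and *Slc16a1* is down in VAT and liver.

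Markers of other cell types also differed between the diets in VAT and SAT, and their part in the values was not tested beyond the covariates that follow. The macrophage score was 5.29 to 6.72 in chow VAT and 6.98 to 8.01 in HFD VAT, without overlap, and none of the 8 markers was at 0 throughout either diet. With that score as a covariate, 0 of 6 members and 1.25% of all genes passed in VAT, with *Slc16a1* at −1.08 (adjusted p = 0.236), *Slc16a3* at 0.87 (adjusted p = 0.562), *Ldha* at 0.33 (adjusted p = 0.678) and *Ldhb* at 0.25 (adjusted p = 0.804), in the other direction. Epididymis markers were at 6.29 in chow VAT WT replicate 2 and at 5.11 in KO replicate 1, against at most 1.32 in the other chow VAT libraries and −2.14 in HFD VAT, where 3 of the 8 markers were at 0 in all libraries. With that score as a covariate 2 of 6 passed (36.1% of all genes), *Slc16a1* (−1.03, adjusted p = 0.00334) and *Slc16a3*. In male SAT the lymphocyte score was −0.57 to 5.46 on chow (median 4.30) and −0.74 to 3.72 on HFD (median −0.38), and the skeletal muscle score 1.83 to 9.07 (median 3.30) and −1.07 to 5.87 (median −0.42), each with overlap. The adipocyte score was 9.53 to 10.99 on chow and 10.54 to 11.07 on HFD. No marker of these lists was at 0 in all libraries of either diet. In SAT, *Ldha* was at 0.22 (adjusted p = 0.406) with the lymphocyte score and at 0.15 (adjusted p = 0.435) with the adipocyte score, and passed with the muscle score (0.84, adjusted p = 0.00355), while *Bsg* passed with either of the first (0.44, adjusted p = 0.0348, and 0.42, adjusted p = 0.0104).

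The comparison of liver with fat depends on the scale. TMM normalization assumes that most genes do not differ, and the median of all genes was at −0.19 in this comparison and at −1.29 with library sizes alone. *Slc16a1* was higher in liver by 0.77 ± 0.11 (adjusted p = 4.65e-08) and *Bsg* by 0.90 ± 0.08 on the log2 scale with TMM, and both were lower with library sizes alone (−0.32 and −0.19). In TPM they were lower in liver too, with medians of 42.8 against 57.3 for *Slc16a1* and 203 against 302 for *Bsg*. *Slc16a7* and *Ldha* (1.98 ± 0.09) were higher, and *Slc16a3* (−1.58 ± 0.31) and *Ldhb* lower, in liver on each of these scales.

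**Figure D5:**
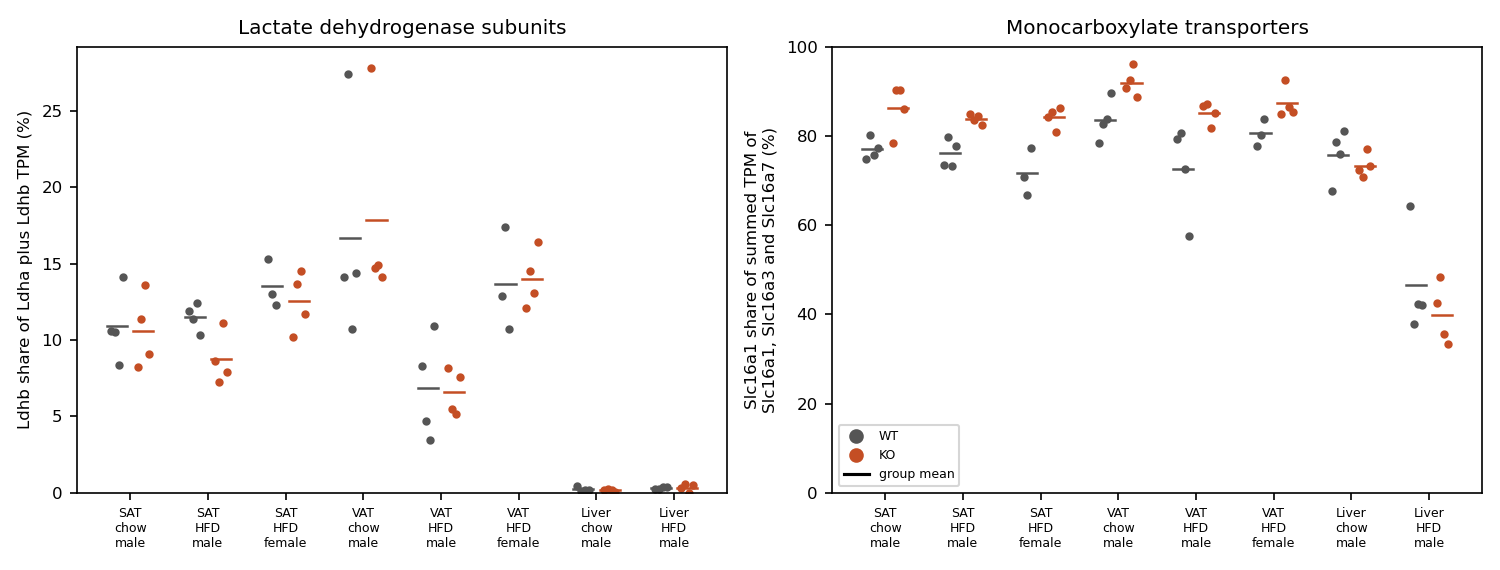
Share of *Ldhb* in the summed TPM of *Ldha* and *Ldhb* (left y axis, %) and share of *Slc16a1* in the summed TPM of *Slc16a1*, *Slc16a3* and *Slc16a7* (right y axis, %) in each library (points; bars, group means; WT grey, KO orange). The *Ldhb* share is under 1% in liver, and the *Slc16a1* share is lowest in liver on HFD.

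Shares within a library do not depend on that scale, and they are given as a description. *Ldhb* made up 3.46% to 27.8% of the lactate dehydrogenase TPM in male fat (median 10.6%) and 0% to 0.542% in liver. In VAT of males the share of *Ldhb* was 10.7% to 27.8% on chow and 3.46% to 10.9% on HFD. The 2 chow libraries with high epididymis scores had 27.8% (KO replicate 1) and 27.4% (WT replicate 2), and the other 6 chow libraries 10.7% to 14.9%. *Slc16a1* made up 57.5% to 96.1% of the TPM of the 3 transporter genes in male fat. In liver its share was 67.6% to 81.2% on chow and 33.3% to 64.3% on HFD, without overlap, and *Slc16a7* took 35.5% to 66.5% on HFD. On HFD the liver had a median of 59.3 TPM over the 3 transporter genes against 87.2 TPM on chow, and 326 TPM over both subunit genes against 590 TPM.

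Within groups, *Bsg* and *Ldha* deviated together across the 46 fat libraries (Pearson r = 0.70 of deviations from group means), as did *Slc16a1* with *Bsg* (0.64) and with *Ldha* (0.59), while *Slc16a3* had at most 0.19 with any other member. The libraries share depth, cell content and scaling factor, and no test was made. Over the means of the 16 groups, among 20673 genes, those most like *Slc16a1* were *Leo1* (r = 0.916), *Prune1* and *Pole4*. Those most like *Slc16a3* were *Flvcr1* (0.916), *Asb10* and *Clec4a1*, and those most like *Slc16a7* were *Akr1d1* (0.992), *Akr1c20* and *Serpina6*. For *Bsg* they were *Hras* (0.978), *Ak3* and *Ndufa7*, for *Ldha* *Cops5* (0.99), *Hadhb* and *Psmb7*, and for *Ldhb* *Dmrt2* (0.994), *Npdc1* and *Plagl1*. The group means of 1 tissue lie together, so that the 16 points are not independent, and no test was made.

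Genes of glycolysis, the pathway that supplies pyruvate to *Ldha*, were more often higher than lower on HFD in fat. Of 24 genes of glucose uptake and glycolysis, 10 of 22 tested were higher and 2 lower on HFD in male SAT, where 58% of all genes were DE (median log2 fold change 0.41, all genes −0.02). With the lymphocyte score as a covariate 6 were higher and 3 lower (26.5% of all genes; median 0.05), and with the adipocyte score 7 and 2 (34.6%; median 0.10). The 4 with the smallest p were *Pgam1* (1.03), *Pfkl* (0.98), *Eno1* (1.07) and *Tpi1* (1.55), all higher. In VAT 12 of 23 were higher and 1 lower, where 44.2% of all genes were DE (median 0.46, all genes −0.04), led by the hexokinase gene *Hk3* (2.88), the pyruvate kinase gene *Pkm* (1.05) and *Tpi1* (1.25). With the macrophage score as a covariate, which did not overlap between the diets in VAT, 0 of 23 passed in edgeR (1.25% of all genes), 8 had an unadjusted p under 0.05 and the median was 0.58. In liver 6 of 21 were higher and 3 lower (40.8% of all genes), among them the liver pyruvate kinase *Pklr* (1.33), which was higher, and *Aldoa* (−0.39), which was lower as *Ldha* was. KO against WT in male fat called 5 of 24, all higher in KO, *Pfkl* (0.44), *Pgk1* (0.46), *Tpi1* (0.66), *Pkm* (0.57) and *Pgam1* (0.35), where 3.97% of all genes were DE. These 5 were counted in the contrast that chose the set. In female fat and in liver 0 were DE between genotypes.

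Of 18 genes of pyruvate entry and gluconeogenesis, 11 were higher and 3 lower on HFD in male SAT (58% of all genes DE). In VAT 1 was higher and 4 lower (44.2%), and in liver 5 were higher and 6 lower (40.8%). With the lymphocyte score as a covariate 2 were higher and 3 lower in SAT (26.5% of all genes), and with the adipocyte score 3 and 2 (34.6%). With the macrophage score 1 was higher and 0 lower in VAT (1.25%). The kinase gene *Pdk2*, whose product inhibits pyruvate dehydrogenase, was lower in SAT (−0.84) and VAT (−1.86) and higher in liver (0.86). The gluconeogenic genes *Pck1* (−1.34) and *G6pc* (−1.55) were lower in liver on HFD, as were *Slc16a1* and *Ldha*. The mitochondrial pyruvate carrier gene *Mpc2* was the only one of the 18 that was DE between genotypes in male fat (0.50 ± 0.12, higher in KO). In that contrast, which chose the set, 3.97% of all genes were DE. Of 11 other lactate genes, 5 to 8 had enough counts to be tested. *Ldhd*, the gene of the D-lactate dehydrogenase, was higher on HFD in SAT (0.81) and liver (0.66) and lower in VAT (−1.69), and the transporter gene *Slc16a12* likewise rose in SAT (1.09) and liver (0.79) and fell by 0.45 on the log2 scale in VAT. These were the 2 of 8 tested that were DE in VAT, both lower, and with the macrophage score 2 of 8 passed (1.25% of all genes), both higher. Between genotypes in male fat, 1 of 8 was DE, *Slc16a12* (0.66 ± 0.19, higher in KO), again in the contrast that chose the set. *Emb*, which encodes the other partner protein of the transporters, was lower in liver than in fat (−4.45 on the log2 scale).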

How the data were processed

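Libraries were made with the TruSeq Stranded kit, and the authors deposited raw read counts per gene from STAR, version 2.6 by the study's methods and 2.5.3a by the submitters' processing notes, on GRCm38/mm10 with Gencode M11; which strand column was kept is not given in the sources used here. The members and lists were chosen with earlier results of these data known. Of 48795 genes, 48349 (99.1%) matched a symbol in GENCODE M21.

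From the deposited counts, CPM with TMM factors, log2 CPM (prior count 2) and TPM (merged exon length, without the ribosomal RNA gene CT010467.1) were computed. Comparisons were fitted with edgeR 4.0.16 (R 4.3.3; filterByExpr, quasi-likelihood test) over all genes, with Benjamini-Hochberg adjustment and an FDR of 10%, diet, depot and genotype being covariates where not compared. The SE is the log2 fold change over the root of F. The scripts were tested on simulated data. All libraries were taken as separate samples, with tissues unpaired, and replicates were numbered in accession order. Marker scores are means of log2 CPM over 8 genes.

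Alternatives were other normalizations, at least 10 counts in every library or no filter on low counts, DESeq2 1.42.0, an FDR of 5%, marker scores, lane or surrogate variables (sva 3.50.0) as covariates, subsets of libraries and leaving out each library. Of the other lists, at most 5 genes past the FDR with the smallest p were named per comparison, and 3 genes most like each member. Some genes that this rule names in liver are not reported here.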

Additional observations from a re-analysis of the deposited data

Results flagged for a closer look

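In 6 of 84 sets of 4 libraries (each of the 6 genes in each group of 4, so that sets share libraries), 1 library lay far from the others by Dixon's test, which chance does in about 1 in 20 sets. *Slc16a1* was at 116 CPM in replicate 1 of WT liver on HFD, above the 3 others. *Slc16a3* was at 18.3 CPM in replicate 1 of KO SAT on chow, the library with the skeletal muscle score of 9.07. *Bsg* was at 239 CPM in replicate 3 of KO liver on HFD, below the others, the library with 75.4% ribosomal RNA. *Bsg* was also low, at 157 CPM, in replicate 2 of KO SAT on HFD. *Ldha* was at 140 CPM in replicate 1 of KO VAT on chow, below the others, a library with an epididymis score of 5.11. *Ldhb* was at 9.54 CPM in replicate 4 of KO SAT on chow, below the others, the library with the lymphocyte score of 5.14.

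The effect of HFD differed between VAT and SAT of males by an interaction term in edgeR for 3 members. The difference (VAT minus SAT, log2) was 2.03 for *Slc16a3* (adjusted p = 0.0477, range over alternatives 0.00896 to 0.639), −0.77 for *Bsg* (adjusted p = 0.00405, range 0.00106 to 0.252) and −1.22 for *Ldhb* (adjusted p = 0.0105, range 0.00414 to 0.934). The part of the cell content of these libraries in the values was not tested beyond the covariates given.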

How the results depend on the processing

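No paired analysis was possible because the labels give no replicate numbers. Of the results under alternative settings, 591 kept direction and side of the threshold, 26 lost the threshold, 21 passed it and 21 changed sign. In 31 cases a count moved by over 1.5 times, and the causes were not tested. Among the 591, counts only had to stay within 1.5 times, and genotype values of members in male fat had no threshold to keep. The tally leaves out 38 pairs of member and comparison that no alternative took past the threshold. Scaling by library sizes alone, the epididymis covariate, each depot of females alone and the covariates in the counts of the other gene lists were chosen after seeing the data. With library sizes alone, liver minus fat was −0.32 for *Slc16a1* and −0.19 for *Bsg*, and VAT against SAT called 2 members (41% of all genes). VAT against SAT called 3 members on chow (37.5% of all genes) and 2 on HFD (44.7%). The sign changed for *Slc16a3* on chow (−0.99), for *Bsg* (−0.21) and *Ldhb* (−0.53) on HFD and for *Slc16a3* with upper-quartile scaling (−0.01).

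The effect of HFD in SAT called 4 members in WT alone (58.8% of all genes) and 0 in KO alone (16.2%). The sign changed for *Slc16a1* (0.33) and *Slc16a3* (0.48), neither of them called, in WT alone and for *Slc16a7* (−0.05) and *Ldhb* (−0.16) in KO alone. It was −0.09 for *Slc16a7* and −0.24 for *Ldhb* with the adipocyte score, −0.07 and −0.02 with the lymphocyte score, and 0.84 for *Slc16a3* with the muscle score. In VAT it called 0 members with the macrophage score (1.25% of all genes, sign changed for *Ldhb*, 0.25). It called 2 with the epididymis score (36.1%), in WT alone (28.7%) or in KO alone (28.7%), and in liver 2 in WT alone (30.6%). In female fat, KO against WT called 1 member, *Slc16a1*, by DESeq2 (2.75% of all genes) and with the lymphocyte score (1.31%). Female against male called 0 with the macrophage score (4.9% of all genes, sign changed for *Slc16a3*, 0.38, and *Ldhb*, −0.08). It called 2 by DESeq2 (40%), with at least 10 counts in every library (43.1%) and without the ribosomal RNA gene (37%). The same number was called with library sizes alone (35.2%), with the muscle score (37.3%) and when the 2 libraries from another flow cell were dropped (38.8%). The diet effect in VAT minus SAT called 0 with the macrophage score (3.37% of all genes) and 1 with the lymphocyte score (10.9%). It was 0.07 for *Slc16a1* with the adipocyte score and −0.13 and −0.27 for *Ldha* with the muscle and epididymis scores. DESeq2 called 2 members for the diet effect in KO minus WT in SAT (5.53% of all genes).

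With 1 library left out, the called members ranged from 1 to 2 for VAT against SAT (2 without replicate 1 or 2 of KO SAT on chow). They ranged from 0 to 1 for KO in female fat and from 1 to 2 for the sexes (2 in 10 of 30 cases). For the diet effect in KO minus WT in SAT they ranged from 0 to 6 (6 without replicate 4 of KO SAT on chow, where 29.2% of all genes passed). Values then ranged, in log2, from −0.05 to 0.55 for *Slc16a3* and −0.03 to 0.12 for *Ldhb* in VAT against SAT, from −1.2 to 0.13 for *Slc16a3* with HFD in SAT, and from −0.04 to 0.21 for *Ldha* in the diet effect of VAT minus SAT. In 38 of 72 pairs of member and comparison no alternative passed the threshold. Of these 38, 21 had the other sign in some setting and 4 passed with a library left out. Low counts limit *Slc16a3* and, in liver, *Ldhb*.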
